A study of Mus musculus with 16 samples.

Results

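The unfolded protein response and the integrated stress response were examined in sorted neutrophils through 10 genes: Hspa5, Hsp90b1, Calr, Pdia4, Pdia6, Xbp1, Herpud1, Atf4, Ddit3 and Trib3. They were chosen by name, as effectors of these pathways, and matched by Ensembl identifier, and all 10 were found among the 49315 genes of the count files. RNA was sequenced from Ly6G+/CD11b+/CD45.2+ cells of blood and lung, taken from wild-type (WT) mice or from mice labelled αD KO, a knockout of Itgad, the gene of the integrin subunit CD11d. Mice were male, 8 to 12 weeks old, and either untreated (0h) or studied 12 hours after cecal ligation and puncture (CLP), a surgical model of abdominal sepsis. Each of the 8 groups of genotype, tissue and time had 3 count files from 2 samples, and they are named here as libraries 1a and 1b, both of sample 1, and library 2, of sample 2.

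Proteins that enter the secretory pathway fold in the endoplasmic reticulum (ER) with the help of chaperones. When unfolded protein accumulates, the sensors IRE1, ATF6 and PERK start the unfolded protein response, in which the transcription factors XBP1 and ATF6 induce chaperones and the machinery that degrades misfolded protein. PERK is also an eIF2α kinase of the integrated stress response, which slows translation in general while ATF4 is made, and ATF4 induces CHOP (the product of Ddit3), the pseudokinase TRIB3 and genes of amino acid supply. Granulocyte precursors fill their granules through the secretory pathway, and XBP1 is known for its role in secretory blood cells such as plasma cells and eosinophils.

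The regulatory letters that tie these genes to the pathway were read from the RefSeq promoters of build GRCm38.p6, which run from 250 bases before to 50 bases after each annotated start. All 10 genes had 1 promoter there. The ER stress response element, searched on both strands as CCAAT, any 9 bases and CCACG, was found in 4 of the 10 promoters (Hspa5, Hsp90b1, Calr and Pdia6) and in 39 of all 32851 promoters (0.119%). Stretches of these promoters are shown because the same element recurs in the chaperones whose levels are described next, with the element in capitals and each stretch written in the direction of its gene.
Hspa5: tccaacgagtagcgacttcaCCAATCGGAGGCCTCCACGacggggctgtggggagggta
Hsp90b1: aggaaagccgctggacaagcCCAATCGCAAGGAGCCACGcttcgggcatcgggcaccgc
Hsp90b1: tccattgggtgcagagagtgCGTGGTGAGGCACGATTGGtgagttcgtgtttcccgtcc
Calr: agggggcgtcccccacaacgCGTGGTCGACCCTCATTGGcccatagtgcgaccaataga
Pdia6: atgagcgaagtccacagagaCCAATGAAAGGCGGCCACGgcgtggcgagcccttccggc
The Hspa5 stretch lies at chr2:34772005-34772063 on the plus strand, with the element 65 bases before the RefSeq start. That start lies 120 bases downstream of the gene start in the annotation of the count files, so the element is inside the gene's interval as given below. For the other 9 genes the starts differ by 0 to 82 bases. The Hsp90b1 stretches lie at chr10:86705618-86705676 and chr10:86705513-86705571 on the minus strand, with elements 212 and 107 bases before the start, the latter in the opposite direction. The Calr stretch lies at chr8:84847055-84847113 on the minus strand (162 bases, opposite direction), and that of Pdia6 at chr12:17266471-17266529 on the plus strand (98 bases).

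Herpud1 held a shorter form, ER stress response element II (ATTGG, any base and CCACG), 52 bases before its start, and this form occurred in 12 of the 32851 promoters (0.0365%). It also held a C/EBP-ATF response element (TGATG, any base and AA, here on the opposite strand) 112 bases before the start. Both matches are in capitals in its stretch, chr8:94386297-94386407 on the plus strand.
Herpud1: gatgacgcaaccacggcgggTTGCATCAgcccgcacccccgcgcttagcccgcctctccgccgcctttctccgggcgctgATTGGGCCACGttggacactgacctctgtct
The C/EBP-ATF element was found in 2 of the 10 promoters, Herpud1 and Trib3 (15 bases after its start), and in 1304 of all promoters (3.97%). The core of the unfolded protein response element, TGACGTGG, was in none of the 10 and in 222 of all promoters (0.676%). Of 32 ATF4 and CHOP target genes with a promoter in the table, 13 held the C/EBP-ATF element, among them Asns, Chac1, Atf3 and Nupr1. These are matches of letters and do not show that a factor was bound. The second ER stress element was added to the search after the data had been seen.

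**Figure D1:**
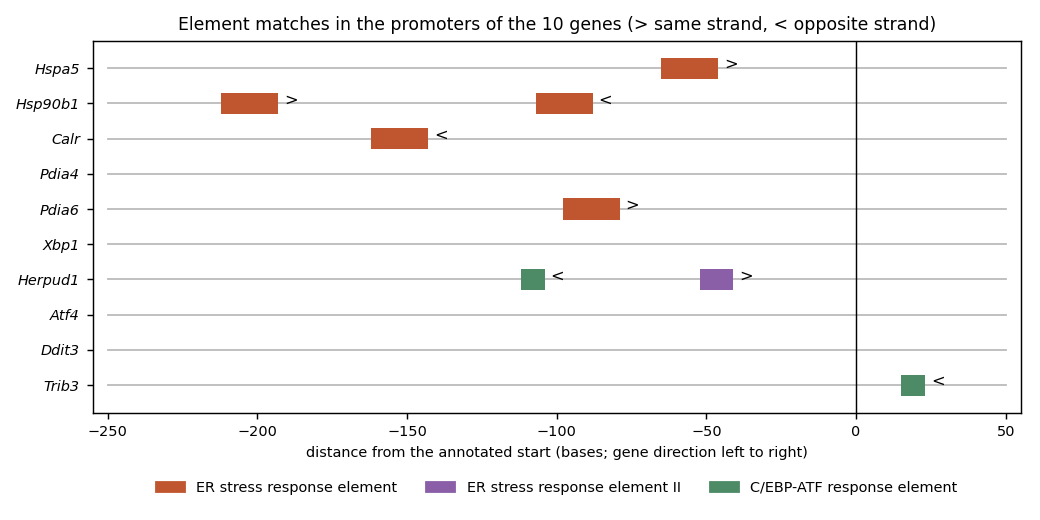
Position of element matches in the promoters of the 10 genes, in bases from the annotated start (vertical line), with each match drawn to scale and its strand marked. Hspa5, Hsp90b1, Calr and Pdia6 hold the ER stress response element, Hsp90b1 at 2 positions, and Pdia4, Xbp1, Atf4 and Ddit3 hold no match in this window.

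Total counts per library were 5753476 to 29984954 (median 18741144). The libraries 1b had 29162 to 38844 genes with counts and the other libraries 17132 to 32666, and several of the 10 genes were lowest in library 1b of their group. Some lung libraries labelled αD KO stood apart from their group. Summed CPM (counts scaled to a common library size) of 10 genes of immature neutrophil granules was 79160 in library 2 of αD KO lung at 0h, against 742 to 17280 in libraries 1a and 1b. It was 8348 and 12900 in libraries 1a and 2 of αD KO lung at 12 hours, against 27760 in library 1b and 32630 to 89880 in WT lung at 12 hours. Whether the time labels of these libraries were exchanged was not tested and cannot be settled from the labels, so each value of αD KO lung below is that of the libraries as labelled. Itgad, the gene targeted in the αD KO mice, was at 0.0583 to 3.67 CPM in the 12 WT libraries and higher, at 12.5 to 102 CPM, in the 12 with the αD KO label. Counts per gene cannot separate RNA of a disrupted allele from intact mRNA, so the deletion is not checked by them. The p-values below measure only the spread between these libraries, which may be technical, since the labels do not say that files 1a and 1b come from separate mice. For 3 libraries against 3, the smallest exact permutation p is 0.1, and groups without overlap can go no lower. The share of all genes whose groups do not overlap is not given here.

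On the TPM scale, which accounts for gene length and library size, the order of the genes by their median over 24 libraries was Hspa5 (287.5 TPM), Xbp1 (252 TPM), Herpud1 (149.7 TPM), Ddit3 (121 TPM), Atf4 (105.5 TPM), Calr (73.8 TPM), Hsp90b1 (37.9 TPM), Pdia6 (28.7 TPM), Pdia4 (9.56 TPM) and Trib3 (3.30 TPM). The ranges over libraries overlapped between all neighbours in this order: that of Hspa5 was 105 to 574 TPM and that of Xbp1 136 to 429.8 TPM. Trib3, which inhibits AKT signalling and dampens ATF4 activity, was the lowest, with 16 to 153 counts per library, so its values carry the largest counting error of the 10. The order was not the same in each group: by mean TPM, Ddit3 was in place 3 in WT blood at 0h (193 ± 80.0 TPM, SD, n = 3) and in place 8 at 12 hours (19.8 ± 2.69 TPM), whereas Pdia4 and Trib3 were in places 9 and 10 in all 8 groups. Over all libraries the highest CPM of a gene was between 5.64 times (Trib3) and 22.8 times (Pdia6) its lowest.

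For some genes the direction of the difference between the times depended on the scale. The CPM values use TMM factors, which lessen the weight of a few very abundant genes, whereas TPM is a share of the whole library. The ratio of the 12-hour to the 0h level was taken for the 10 genes as a geometric mean over libraries of the same number. In TPM this ratio was 0.506 times that in CPM in WT blood, 0.533 times in αD KO blood, 0.505 times in WT lung and 0.979 times in αD KO lung. Rises were thus smaller and falls deeper in TPM: for Ddit3 in WT blood the ratio was 0.216 in CPM and 0.109 in TPM. By this geometric mean the direction turned for 3 of the 10 genes in WT blood, 4 in αD KO blood, 5 in WT lung and 0 in αD KO lung. By arithmetic group means Hspa5 in WT lung (316 to 376 TPM) and Hsp90b1 in αD KO blood (49.9 to 53.3 TPM) did not turn. Hspa5 in αD KO lung did, from 547 to 518 CPM and from 265 to 284 TPM. edgeR was therefore also run with library totals in place of TMM factors, a setting chosen after seeing the data. The median log2 fold change of all genes then moved by -0.45 in WT blood, -0.60 in WT lung and -0.38 in αD KO blood. Of all genes called, the share that was higher at 12 hours went from 57.4% to 31.8% in WT blood, from 58.1% to 21.9% in WT lung and from 42.9% to 19.2% in αD KO blood.

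**Figure D2:**
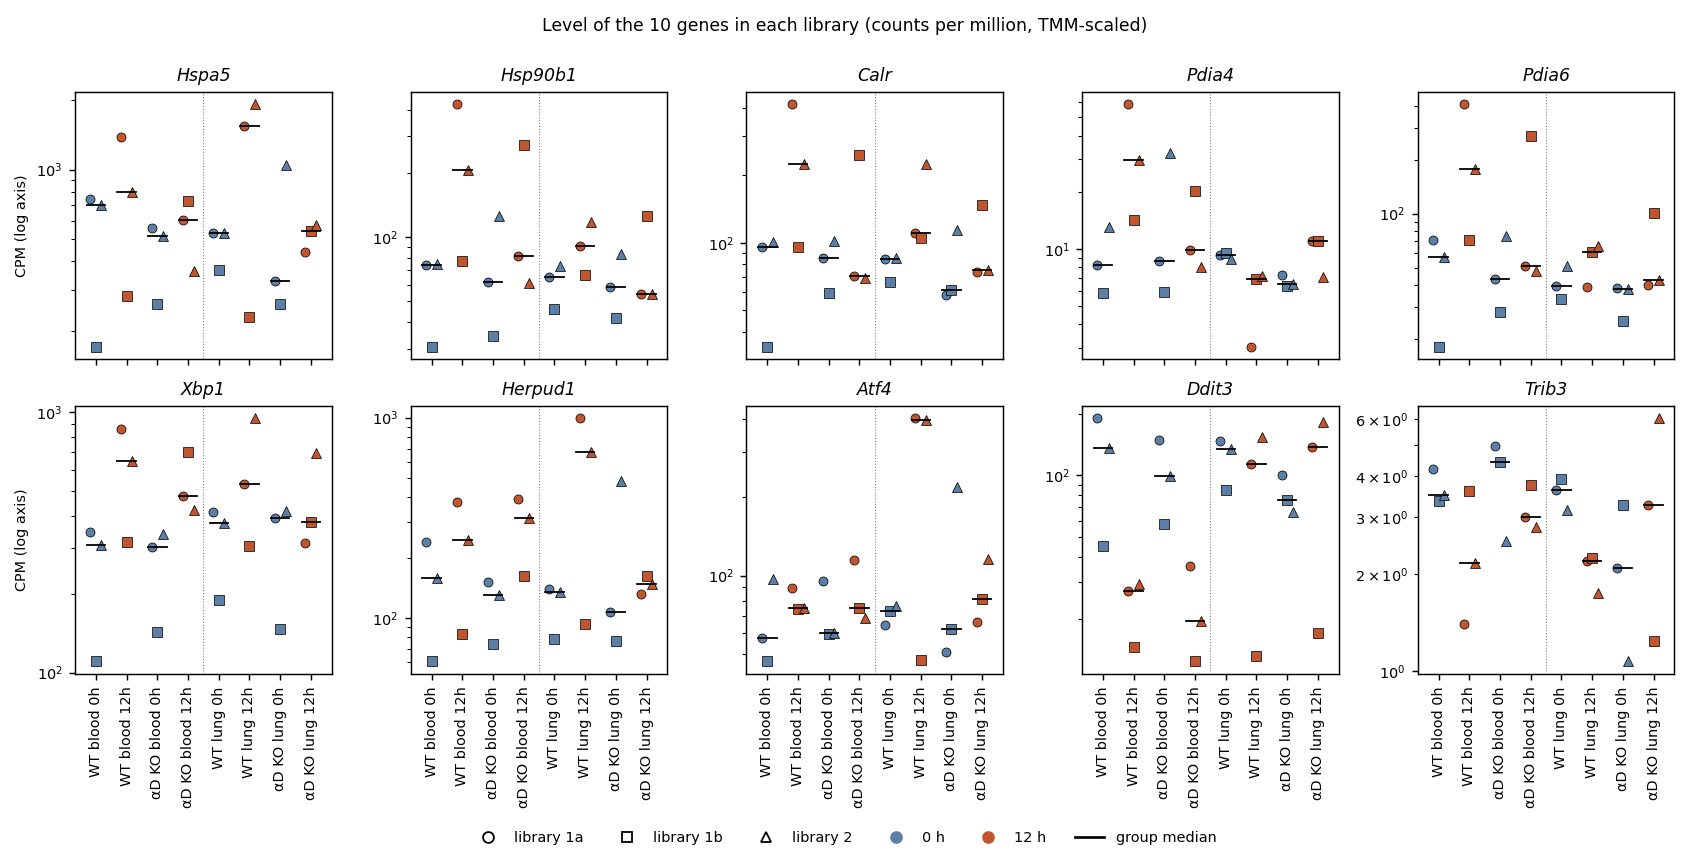
CPM of each gene (log axis) in every library of the 8 groups, blood to the left of the dotted line and lung to the right, with marker shape for the library number, colour for the time and a bar for the group median. Ddit3 is lower at 12 hours in all blood libraries of both genotypes than in any blood library at 0h of the same genotype, and Atf4 and Herpud1 reach their highest values in libraries 1a and 2 of WT lung at 12 hours.

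The effect of CLP on blood neutrophils was asked first. Ddit3, which encodes the stress-induced transcription factor CHOP, fell in blood of both genotypes. It is at chr10:127290774-127296288 on the plus strand (ENSMUSG00000025408). In WT blood it had 189.8, 45.3 and 136 CPM in libraries 1a, 1b and 2 at 0h and 27.3, 14.5 and 29.7 CPM at 12 hours. In αD KO blood it had 148, 58.0 and 99.0 CPM at 0h and 36.2, 12.4 and 19.4 CPM at 12 hours. The groups did not overlap in either genotype, and between libraries of the same number the 12-hour level was 0.144, 0.321 and 0.217 times that at 0h in WT and 0.244, 0.213 and 0.196 times in αD KO.

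By edgeR's quasi-likelihood F test, Ddit3 was 5.91-fold lower in WT blood (log2 fold change -2.56, SE 0.47, adjusted p = 0.0147) and 5.17-fold lower in αD KO blood (log2 fold change -2.37, SE 0.43, adjusted p = 0.0173). Genes count as called here where the adjusted p is under 0.05 and the fold change over 1 on the log2 scale in either direction, and Ddit3 was the 1 gene of the 10 called in each genotype, against 13.5% of 14625 genes tested in WT blood and 8.75% of 14156 in αD KO blood. The 1.23e-07 and 1.43e-05 of DESeq2's Wald test (adjusted p in WT and αD KO) were smaller. With a variance shared over all 8 groups, edgeR's adjusted p for Ddit3 was 0.0854 in WT and 0.156 in αD KO, so neither was called. In WT the edgeR call for Ddit3 also needed 4 of the libraries: without 0h library 1a the adjusted p was 0.153, without 0h library 2 it was 0.156, without 12-hour library 1a it was 0.246 and without 12-hour library 2 it was 0.243. In αD KO the adjusted p for Ddit3 was 0.115 without 0h library 1a, 0.0522 without 0h library 2 and 0.133 without 12-hour library 2. Its log2 fold change stayed between -2.92 and -1.99 in all of these fits of both genotypes. With library totals Ddit3 was again the 1 gene of the 10 called in blood (adjusted p = 0.00215 in WT and 0.00757 in αD KO by edgeR), against 14.7% and 11.2% of all genes. In TPM the groups of Ddit3 did not overlap either. In bulk RNA, fewer cells of a type and less RNA per cell cannot be told apart, here and in the other results. Of the 1713 exonic bases of Ddit3, 68 (3.97%) are shared with exons of Mars on the opposite strand, and the strand used in counting is not stated.

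Other genes of the PERK branch moved in both directions. Atf4, the transcription factor that drives the integrated stress response, had 57.2, 46.7 and 96.9 CPM in WT blood at 0h and 89.4, 74.1 and 74.9 CPM at 12 hours, and its groups overlapped. It is regulated mainly through translation, which counts do not show. Trib3 stayed between 1.40 and 4.97 CPM in blood and was not called, although in TPM its 12-hour libraries were below those at 0h in both genotypes. Of 9 genes for eIF2α kinases and the eIF2α phosphatase, 2 fell in WT blood and 1 rose (median log2 fold change 0.48, against -0.15 over all genes), where 13.5% of all genes were called. Ppp1r15a, which encodes the stress-induced phosphatase subunit GADD34, was 9.11-fold lower (868, 107 and 556 CPM at 0h, 47.8, 51.0 and 86.4 CPM at 12 hours, adjusted p = 0.0222). Eif2ak3, the gene of PERK itself, was 4.99-fold lower (adjusted p = 0.00705). Ppp1r15b, the constitutive phosphatase subunit, rose, with 82.1, 75.5 and 133 CPM at 0h and 433, 388 and 421 CPM at 12 hours (adjusted p = 0.0098). In αD KO blood Eif2ak3 fell 4.45-fold and Ppp1r15b rose, and no other gene of the list was called, against 8.75% of all genes. These calls and those of the other pathway lists in blood rest on single libraries. Of 23 list genes called in WT blood, 22 and 19 were called without library 1b at 0h or at 12 hours, 1 (Chac1) without 0h library 1a, and 0 without 0h library 2, 12-hour library 1a or 12-hour library 2. Of 13 called in αD KO blood, 11 were called without 12-hour library 1b, 10 without 0h library 2, 6 without 0h library 1b, 4 without 12-hour library 1a, 2 without 12-hour library 2 and 0 without 0h library 1a. Each of them kept its direction in these fits.

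Among 39 tested ATF4 and CHOP targets, 5 rose and 3 fell in WT blood (median log2 fold change -0.36), where 13.5% of all genes were called and 7.75% were called higher. With library totals 2 rose and 9 fell there, against 685 higher and 1471 lower of all 14625 genes. Among 38 in αD KO blood 2 rose and 3 fell (median -0.45, against -0.14 over all genes), where 8.75% were called. With library totals 2 rose and 6 fell, against 304 higher and 1281 lower of all 14156 genes. Chac1, a glutathione-degrading enzyme induced through ATF4 and CHOP, fell 30.8-fold in WT blood (89.7, 25.3 and 73.5 CPM to 2.51, 2.21 and 2.02 CPM) and 23.5-fold in αD KO blood, with adjusted p = 0.00188 and 0.0142. Atf3, a stress-induced transcription factor, fell 27.1-fold in WT blood and 21.6-fold in αD KO blood (adjusted p = 0.0204 and 0.018). Of the genes that rose, Slc7a5, a transporter of large neutral amino acids, had 4.21, 1.27 and 4.30 CPM in WT blood at 0h and 30.3, 36.3 and 33.0 CPM at 12 hours (adjusted p = 0.00512), and Asns, asparagine synthetase, rose from 14.2, 5.79 and 12.9 CPM to 89.8, 46.8 and 53.9 CPM (adjusted p = 0.00749). Both also rose in αD KO blood, with log2 fold changes of 2.71 for Slc7a5 and 2.11 for Asns. Asns, which rose, and Chac1 and Atf3, which fell, all held the C/EBP-ATF element in their promoters.

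The ER folding genes among the 10 were not called by edgeR in WT blood, although their values at 12 hours were above those at 0h in libraries of the same number on the CPM scale and, except for Hspa5, in TPM. Hsp90b1 (GRP94, ENSMUSG00000020048, chr10:86690209-86705509, minus strand), the ER member of the HSP90 family, had 74.1, 30.5 and 75.3 CPM at 0h and 425, 77.6 and 207 CPM at 12 hours. Calr (calreticulin, ENSMUSG00000003814, chr8:84841850-84846934, minus strand), a lectin chaperone for glycoproteins, had 95.3, 34.2 and 101 CPM at 0h and 418, 96.1 and 226 CPM at 12 hours. Of the disulfide isomerases, Pdia4 (ENSMUSG00000025823, chr6:47796141-47813430, minus strand) had 8.24, 5.88 and 13.1 CPM at 0h and 59.0, 14.2 and 29.9 CPM at 12 hours. Hsp90b1 and Pdia4 did not overlap between the times in CPM but overlapped in TPM, whereas library 1b of Calr at 12 hours lay within the range at 0h.

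Pdia6 (ENSMUSG00000020571, chr12:17266545-17284770, plus strand), a disulfide isomerase that also binds the IRE1 sensor, had 71.2, 18 and 57.0 CPM at 0h and 409.9, 70.8 and 178 CPM at 12 hours. Xbp1 (ENSMUSG00000020484, chr11:5520659-5525893, plus strand), whose message is spliced by IRE1 into the active factor, had 347, 110.4 and 308 CPM at 0h and 859, 316 and 646 CPM at 12 hours. Gene counts do not separate spliced from unspliced Xbp1. For each of these 5 genes the 12-hour level was higher in all 3 pairs of libraries of the same number, by 2.24 times (Calr, library 2) to 7.16 times (Pdia4, library 1a) for the folding genes and by 2.10 to 2.86 times for Xbp1.

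By edgeR without pairing, none of the 5 was called: the log2 fold change was 1.75 (SE 0.55, adjusted p = 0.0762) for Hsp90b1, 1.46 (SE 0.52, adjusted p = 0.108) for Calr, 1.68 (SE 0.47, adjusted p = 0.0507) for Pdia4, 1.95 (SE 0.63, adjusted p = 0.0828) for Pdia6 and 1.05 (SE 0.46, adjusted p = 0.182) for Xbp1. With the library number as a block in the edgeR fit, 6 of the 10 genes were called, against 18.4% of all genes: Ddit3 was lower, and Hsp90b1 (adjusted p = 0.0159), Calr (0.0186), Pdia4 (0.0311), Pdia6 (0.0064) and Xbp1 (0.0397) were higher. DESeq2 called 6 of the 10, against 21.6% of genes, with adjusted p = 0.00587 for Hsp90b1, 0.0165 for Calr, 0.00594 for Pdia4, 0.00605 for Pdia6 and 0.0479 for Xbp1. Without library 1b of WT blood at 12 hours, edgeR called Hsp90b1, Calr, Pdia4 and Pdia6 (log2 fold changes 1.74 to 2.28) beside Ddit3, against 9.9% of all genes.

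Hspa5 (BiP, ENSMUSG00000026864, chr2:34771970-34777547, plus strand), the main ER chaperone and the one that holds the sensors inactive, changed less in WT blood. It had 746, 169.8 and 702 CPM at 0h and 1386, 283 and 796 CPM at 12 hours, which is 1.86, 1.67 and 1.13 times as much in libraries of the same number, and was called by neither tool. Herpud1 (ENSMUSG00000031770, chr8:94386438-94395377, plus strand), an ER membrane protein of the degradation complex, had 240.4, 60.8 and 158 CPM at 0h and 378, 83.1 and 244 CPM at 12 hours. Both were higher in CPM in all 3 libraries of the same number, by less than the spread between the libraries of a group, and both were lower in TPM in all 3. Hspa5 had 419, 160.5 and 437 TPM at 0h and 380.2, 142 and 248.6 TPM at 12 hours, and Herpud1 had 244.5, 104 and 179 TPM and then 188, 75.5 and 138 TPM. Hspa5 holds the same ER stress element in its promoter as Hsp90b1, Calr and Pdia6.

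**Figure D3:**
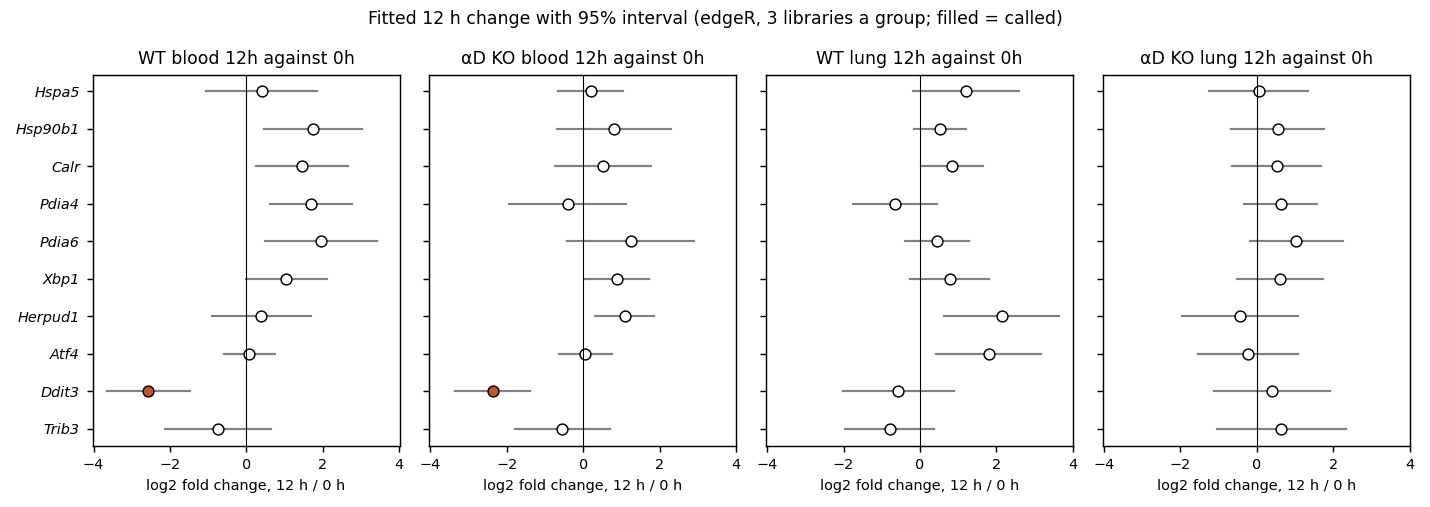
Log2 fold change at 12 hours against 0h for the 10 genes in each genotype and tissue, fitted by edgeR on 3 libraries a group, with 95% intervals. Filled points are called, which is Ddit3 in WT and αD KO blood, at -2.56 and -2.37.

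Of 21 other ER chaperones and folding enzymes tested in WT blood, 7 rose and none fell (median log2 fold change 1.11, against -0.15 over all genes), where 7.75% of all genes were called higher. With library totals 6 rose and 1 fell, against 685 higher and 1471 lower of all 14625 genes. Manf, a secreted ER stress protein that binds BiP, had 7.95, 3.71 and 6.66 CPM at 0h and 75.9, 15.1 and 44.5 CPM at 12 hours (adjusted p = 0.017). P4hb, protein disulfide isomerase, had 122, 42.7 and 138 CPM at 0h and 749.7, 299.8 and 430.1 CPM at 12 hours (adjusted p = 0.0257). The isomerase Pdia3 (log2 fold change 2.17) and the disulfide reductase Dnajc10 (2.13) rose as well. Of 25 genes of ER-associated degradation and translocation, 4 rose and none fell (median 0.51), and those 4 belong to translocation rather than degradation: Sec61g of the Sec61 channel (log2 fold change 2.58), Ssr3 and Ssr1 of the translocon-associated complex (2.24 and 1.49) and Spcs3 of the signal peptidase (1.96). Of 12 sensors and transcription factors, Eif2ak3 alone was called, against 13.5% of all genes.

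Of 14 cytosolic heat shock chaperones and their regulator tested in WT blood, none was called higher, against 7.75% of all genes, and Hsf1, the regulator of that response, fell (27.7, 10.7 and 33.0 CPM to 7.64, 6.88 and 7.31 CPM, adjusted p = 0.0193). The median of the list was -0.73, and 2 of its 14 log2 fold changes were above 0. Hsf1 was also the 1 gene of 14 called in αD KO blood and the 1 of 15 in WT lung, against 8.75% and 9.02% of all genes. There it fell 3.32-fold and 3.47-fold. Of the 6 fits that each left out a library, Hsf1 was called in 0 in αD KO blood and 1 in WT lung.

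Markers moved with these results. All 10 genes of the immature granule list had counts, and their summed level was 282 to 7423 CPM in WT blood at 0h and 80010 to 188500 CPM at 12 hours, and 559.7 to 20280 and 38910 to 127400 CPM in αD KO blood. Of the early granule genes on that list, Mpo, Elane and Ctsg were between 0 and 1.98 CPM in all 24 libraries. Prtn3 had 0.690, 0.905 and 0.169 CPM in WT blood at 0h and 4.55, 3.67 and 6.68 CPM at 12 hours, and 9.68 CPM in library 1b of αD KO blood at 12 hours. The summed level of 11 monocyte and macrophage genes was 436 to 1197 CPM in WT blood at 0h and 109.8 to 304 CPM at 12 hours, and that of 11 B and plasma cell genes 272 to 1215 and 42.8 to 278 CPM. Ighm made up most of the latter, with 242 to 1186 CPM at 0h and 30.7 to 162 CPM at 12 hours, while the other 10 genes summed to 28.2 to 96.2 and 12.1 to 116 CPM, which overlap. The 7 platelet genes summed to 44.5 to 143 CPM at 0h and 6.89 to 32.3 CPM at 12 hours. Library 2 of WT blood at 0h had 308 CPM of 12 lung structural genes, against 8.71 and 24.4 CPM in libraries 1a and 1b. Jchain and Mzb1, which define plasma cells, were at most 4.34 and 9.16 CPM in any of the 24 libraries, the latter in library 2 of αD KO blood at 0h. The part of these cells or maturation stages in the changes above was not tested.

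In αD KO blood the folding genes overlapped between the times. Hsp90b1 had 62.0, 34.5 and 126 CPM at 0h and 81.7, 272 and 61.1 CPM at 12 hours. Calr had 85.1, 59.7 and 101 CPM at 0h and 70.8, 248 and 69.3 CPM at 12 hours. Pdia6 had 43.1, 28.4 and 75.4 CPM at 0h and 51.2, 273 and 47.8 CPM at 12 hours. In each of them library 1b was the lowest at 0h and the highest at 12 hours, where libraries 1a and 2 lay within the range at 0h. Pdia4 had 8.63, 5.93 and 32.2 CPM at 0h and 9.85, 20.3 and 8.08 CPM at 12 hours, so its ranges overlapped as well. Hspa5 had 557, 262 and 517 CPM at 0h and 603, 733 and 361 CPM at 12 hours, and Atf4 had 95.2, 59.5 and 60.2 CPM at 0h and 115, 75.0 and 68.5 CPM at 12 hours. Neither was called, and both overlapped between the times. Markers of other cells differed between these libraries. At 0h library 2 had 280.2 CPM of 8 T and NK cell genes against 25.0 and 14.4 CPM in libraries 1a and 1b, and 1517 CPM of the B and plasma cell genes against 567 and 330.3 CPM. Libraries 1a and 2 at 0h had 657 and 768 CPM of the platelet genes, against 28.3 CPM in library 1b and 5.02 to 50.1 CPM at 12 hours. At 12 hours library 1b had 5893 CPM of 6 erythroid genes against 27.4 and 518 CPM in libraries 1a and 2. The monocyte and macrophage genes summed to 616 to 1378 CPM at 0h and 133.9 to 205 CPM at 12 hours. The part of these cells in the values of αD KO blood was not tested.

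In CPM, Xbp1 and Herpud1 were higher in every αD KO blood library at 12 hours than in any at 0h, whereas in TPM the times overlapped for both, with Xbp1 higher in 1 and Herpud1 in 2 of 3 libraries of the same number. Xbp1 had 302, 143 and 339.5 CPM at 0h and 478, 704 and 419.9 CPM at 12 hours, and was called by neither tool. Herpud1 had 150.4, 74.2 and 130.4 CPM at 0h and 392, 162 and 316 CPM at 12 hours. It was called by DESeq2 (log2 fold change 1.13, SE 0.38, adjusted p = 0.0218), which called 2 of the 10 genes against 18.4% of all genes, and by edgeR at an adjusted p of 0.0306 without library 1b at 12 hours (8.74% of all genes called) but not with all libraries (log2 fold change 1.08, adjusted p = 0.0832). Of 19 other folding genes tested in αD KO blood, P4hb, Ppib and Dnajc10 rose (log2 fold changes 2.40, 1.85 and 1.57), against 3.75% of genes called higher, and of 25 genes of degradation and translocation Ssr1 and Ssr3 rose. With library totals 3 folding genes rose and 1 fell, and 1 gene of degradation and translocation rose, against 304 higher and 1281 lower of all 14156 genes.

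Whether the change differed between genotypes in blood was tested as an interaction term. None of the 10 genes was called by edgeR (0 at an unadjusted p under 0.05; 0 called by DESeq2), and 0.0% of 19792 genes were. The difference in log2 change, αD KO minus WT, was between -1.97 for Pdia4 (95% interval -4.06 to 0.11) and 0.80 for Herpud1 (-1.02 to 2.62). For Ddit3 it was 0.30 (-1.45 to 2.05). The Pdia4 value includes αD KO library 2 at 0h, at 32.2 CPM, against 8.63 and 5.93 CPM in libraries 1a and 1b.

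**Figure D4:**
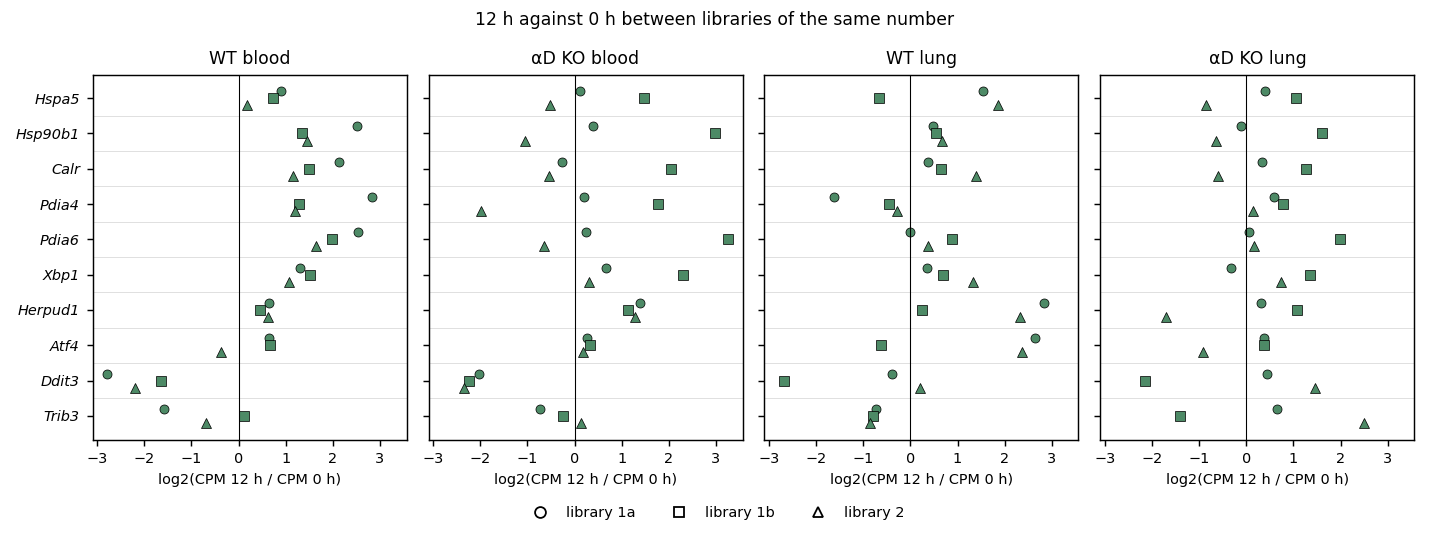
Log2 ratio of CPM at 12 hours to CPM at 0h between libraries of the same number, for each gene, genotype and tissue, with marker shape for the library number. In WT blood the 7 upper genes lie above 0 in all 3 numbers and Ddit3 below 0, whereas in αD KO blood library 2 lies below 0 for Hspa5, Hsp90b1, Calr, Pdia4 and Pdia6. In TPM, which is not drawn, Hspa5 and Herpud1 of WT blood were lower at 12 hours in all 3.

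In WT lung, the largest differences in mean CPM among the 10 genes were in Herpud1, Atf4 and Hspa5, and were carried by libraries 1a and 2. In TPM the largest were falls without overlap, of Ddit3, Trib3 and Pdia4. Their 12-hour TPM was 0.260, 0.290 and 0.292 times that at 0h, as a geometric mean over libraries of the same number. Atf4 (ENSMUSG00000042406, chr15:80255184-80257540, plus strand) had 64.5, 73.2 and 76.5 CPM at 0h and 403, 47.4 and 398 CPM at 12 hours. Herpud1 had 139.5, 78.8 and 134 CPM at 0h and 991, 93.7 and 673 CPM at 12 hours. Hspa5 had 529.7, 366 and 529 CPM at 0h and 1552, 229 and 1930 CPM at 12 hours. Libraries 1a and 2 were thus 5.20 to 6.24 times higher for Atf4, 5.01 to 7.10 times for Herpud1 and 2.93 to 3.65 times for Hspa5, while library 1b was at 0.648, 1.19 and 0.626 times its level at 0h. In TPM, libraries 1a and 2 at 12 hours were likewise above every 0h library for each of these genes, and library 1b was below them.

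With all libraries, edgeR called none of the 10 genes in WT lung, against 9.02% of 14859 genes. At an unadjusted p under 0.05 were 3 of the 10 and 3947 of all genes. DESeq2 called Atf4 (log2 fold change 1.78, SE 0.60, adjusted p = 0.0189) and Herpud1 (log2 fold change 2.13, SE 0.63, adjusted p = 0.00569), 2 of 10 against 20.6% of genes. Without library 1b of WT lung at 12 hours, edgeR called 25.3% of all genes and 3 of the 10, Atf4 (log2 fold change 2.14, adjusted p = 0.00129), Herpud1 (2.51, adjusted p = 0.00123) and Hspa5 (1.56, adjusted p = 0.00567). Library 1b differed from 1a and 2 in other ways too: its summed granule list was 32630 CPM against 89880 and 87550 CPM, and its summed level of 9 neutrophil genes 144200 CPM against 79720 and 91200 CPM. The part of these in the result was not tested.

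The other genes of WT lung were not called. Ddit3 had 147, 85.0 and 135 CPM at 0h and 113, 13.2 and 154 CPM at 12 hours, so that library 1b was at 0.155 times and libraries 1a and 2 at 0.768 and 1.15 times the level at 0h. In TPM it did not overlap between the times, with 215, 173 and 209 TPM at 0h and 80.5, 14.9 and 113 TPM at 12 hours, and was not called by edgeR with library totals (adjusted p = 0.179). Pdia4 had 9.35, 9.55 and 8.83 CPM at 0h and 3.03, 6.98 and 7.21 CPM at 12 hours, lower in each library, but on 43 to 124 counts at 12 hours and not called. Trib3 (ENSMUSG00000032715, chr2:152337422-152344032, minus strand) was also lower in each library, at 1.74 to 2.25 CPM against 3.16 to 3.92 CPM, and not called. Hsp90b1 (91.3, 66.4 and 118 CPM at 12 hours) and Calr (110.4, 105 and 224 CPM) were 1.30 to 2.61 times their level at 0h in libraries of the same number, and Pdia6 was between 0.993 and 1.83 times. These directions held in CPM only: in TPM Hsp90b1 was lower in all 3 libraries (40.6, 39.7 and 48.4 TPM to 27.6, 32.0 and 36.7 TPM), and Calr, Pdia6 and Xbp1 were each higher in 1 of 3. Xbp1 had 413, 189 and 374 CPM at 0h and 529.7, 305 and 946 CPM at 12 hours, higher in each library in CPM and not called.

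Other pathway genes were called in WT lung with all libraries. Of 37 ATF4 and CHOP targets, 5 rose and 2 fell (median log2 fold change 0.06, against 0.03 over all genes), with 5.24% of all genes called higher. With library totals 4 rose and 4 fell, against 409 higher and 1459 lower of all 14859 genes. Ddit4, an inhibitor of mTORC1 signalling, had 0.676, 0.671 and 1.09 CPM at 0h and 24.05, 3.21 and 27.7 CPM at 12 hours (adjusted p = 0.0139). Nupr1, a stress-induced chromatin protein, had 2.67, 5.01 and 2.03 CPM at 0h and 50.7, 11.7 and 60.6 CPM at 12 hours (adjusted p = 0.0152). Slc7a5 rose (log2 fold change 4.26) and Chac1 fell 21.2-fold, as listed for blood. Of 21 folding genes P4hb, Dnajc10 and Ppib rose, of 25 genes of degradation and translocation Ssr3 and Sec61g rose, and of the eIF2α list Ppp1r15b rose and Eif2ak3 fell 5.51-fold. With library totals 1 folding gene rose and 1 fell, and 0 genes of degradation and translocation were called, against 12.6% of all genes. Mars, which overlaps Ddit3, fell 3.01-fold in WT lung and 3.09-fold in αD KO blood. Of the 15 list genes called in WT lung, 15 were called without 12-hour library 1b, 5 without 0h library 1b (Chac1, Ddit4, Eif2ak3, Nupr1 and Slc7a5), 1 (Chac1) without 12-hour library 2 and 0 without 0h library 1a, 0h library 2 or 12-hour library 1a. Markers moved here too: between 0h and 12 hours in WT lung the granule list went from 507 to 2149 CPM to 32630 to 89880 CPM, the monocyte and macrophage genes from 598 to 1018 CPM to 223 to 303 CPM, and the B and plasma cell genes from 437 to 790.4 CPM to 35.3 to 113 CPM. Their part in these changes was not tested.

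**Figure D5:**
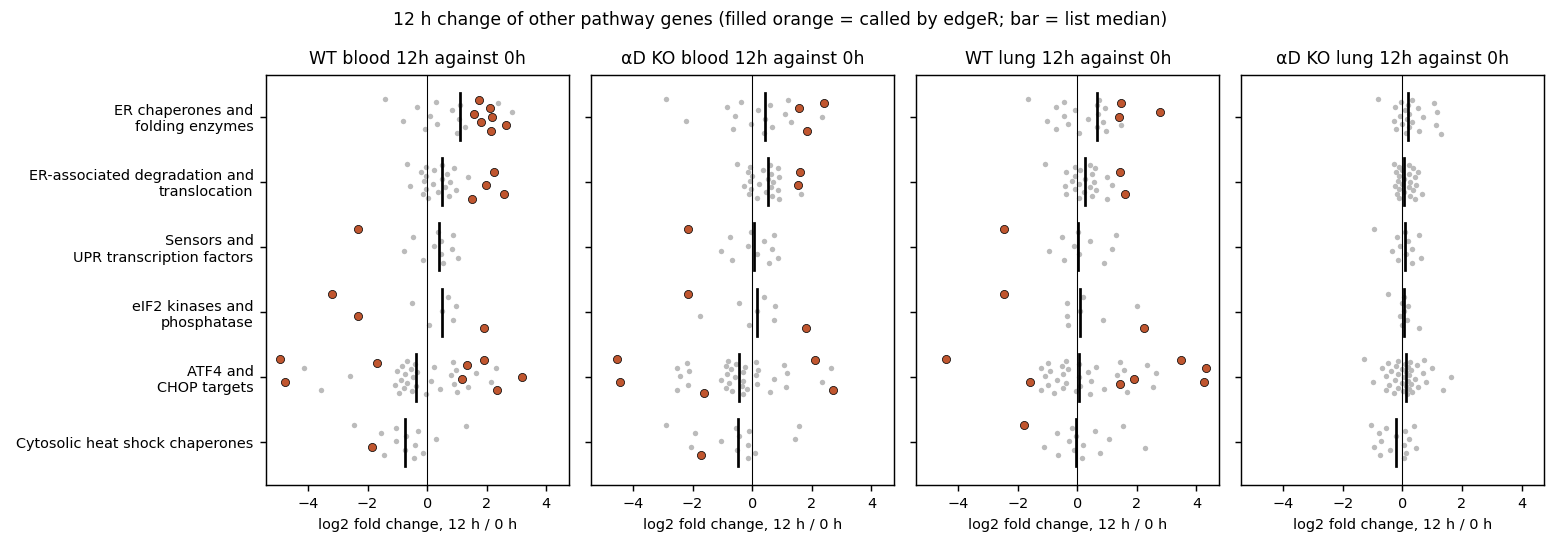
Log2 fold change at 12 hours against 0h for the genes of 6 pathway lists (rows), with a point per gene tested, called genes in orange and a bar at the list median. In WT blood the folding list has 7 called genes, all above 0, the ATF4 and CHOP targets have called genes on both sides of 0, and in αD KO lung no gene is called.

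In αD KO lung, library 2 at 0h lay between the other 0h libraries and libraries 1a and 2 of WT lung at 12 hours. Its Atf4 was 219 CPM, against 50.7 and 62.2 CPM in libraries 1a and 1b. Its Herpud1 was 482 CPM against 107 and 76.8 CPM, and its Hspa5 1051 CPM against 329.8 and 261 CPM. At 12 hours libraries 1a, 1b and 2 had 66.1, 81.0 and 115 CPM of Atf4, 132, 162 and 148 CPM of Herpud1 and 437, 543 and 576 CPM of Hspa5. None of these reached the value of the 0h library 2. Markers of other cells differed between the 0h libraries as well: library 2 had 246 CPM of the monocyte and macrophage genes against 522 and 594 CPM in libraries 1a and 1b, and 54.97 CPM of the B and plasma cell genes against 434 and 295 CPM. Library 1a had 1274 CPM of the lung structural genes against 236 and 104 CPM in libraries 1b and 2. Their part in these values was not tested.

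None of the 10 genes was called in αD KO lung at 12 hours against 0h by edgeR (0 at an unadjusted p under 0.05; 0 by DESeq2), and 0.0% of 17939 genes were. The log2 fold change was -0.24 for Atf4 and -0.44 for Herpud1 with all libraries, and 0.68 (SE 0.43) and 0.73 (SE 0.41) without library 2 at 0h, so the direction of both rested on that library. That of Hspa5 was 0.04 with it and 0.86 (SE 0.45) without it. Without 12-hour library 1a or 2 no gene was called either. Ddit3 had 101, 75.9 and 66.4 CPM at 0h and 137, 17.0 and 182 CPM at 12 hours, again with library 1b at 12 hours as the lowest. Of the folding genes, Hsp90b1, Calr and Pdia6 had their highest 12-hour value in that same library 1b. Hsp90b1 had 54.2, 126 and 54.1 CPM, Calr 73.7, 148 and 75.6 CPM and Pdia6 39.8, 100.2 and 42.4 CPM. At 0h Hsp90b1 had 58.4, 41.5 and 84.0 CPM, Calr 58.7, 61.3 and 114 CPM and Pdia6 38.4, 25.1 and 38.1 CPM. Xbp1 had 392, 148 and 416 CPM at 0h and 313, 378 and 695 CPM at 12 hours, and its ranges overlapped.

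The genotypes were then compared at each time. In blood at 0h none of the 10 genes was called by edgeR (0 at an unadjusted p under 0.05; 0 by DESeq2), against 0.0115% of 17356 genes, and the log2 difference, αD KO against WT, was between -0.35 (Herpud1) and 0.73 (Pdia4). The Pdia4 value includes αD KO library 2, at 32.2 CPM, against 8.63 and 5.93 CPM in libraries 1a and 1b and 5.88 to 13.1 CPM in WT. In lung at 0h none was called (0 unadjusted; 0 by DESeq2), against 0.0% of 18232 genes, with differences between -0.68 (Trib3) and 0.82 (Herpud1). In blood at 12 hours none was called by edgeR, against 0.0% of 12596 genes, or by DESeq2, with differences between -1.29 (Pdia4) and 0.35 (Herpud1). At an unadjusted p under 0.05 were 1 of the 10, Pdia4, and 505 of all genes. Without αD KO library 2 the difference of Herpud1 in lung at 0h was -0.30, so its sign rested on that library.

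In lung at 12 hours the αD KO libraries had lower Atf4, Herpud1 and Hspa5 than WT libraries 1a and 2, and higher values than WT library 1b. None of the 10 was called by edgeR, against 0.0% of 16764 genes, or by DESeq2. At an unadjusted p under 0.05 were 1 of the 10, Herpud1, and 1390 of all genes. The log2 difference for Herpud1 was -1.68 with all libraries and -2.19 (adjusted p = 0.0515) without WT library 1b, where 1.11% of all genes were called. With voom and library quality weights in limma, 21.0% of all genes and 3 of the 10 were called: Herpud1 (log2 difference -2.005, adjusted p = 0.0125), Atf4 (-1.91, adjusted p = 0.0141) and Hspa5 (-1.42, adjusted p = 0.0348). Libraries 1a and 2 of αD KO lung at 12 hours are the ones with a low granule sum. The monocyte and macrophage genes summed to 791, 348 and 852 CPM in αD KO lung at 12 hours, above the 223 to 303 CPM of WT lung, and the B and plasma cell genes to 528, 66.5 and 528 CPM against 35.3 to 113 CPM. The genotype and these features of the libraries cannot be told apart here. By edgeR the genotype by time interaction in lung called none of the 10, against 0.0% of 23211 genes. At an unadjusted p under 0.05 were 3 of the 10 (Pdia4, Herpud1 and Atf4) and 2432 of all genes. DESeq2 called 0 of the 10 here, against 3.24% of genes.

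Lung and blood were compared at the same time. At 0h none of the 10 genes was called in WT (0 unadjusted; 0 by DESeq2; 0.0% of 15967 genes) or in αD KO (0 unadjusted; 0 by DESeq2; 0.0% of 19000 genes), and in WT the log2 difference, lung against blood, was between -0.43 (Herpud1) and 0.29 (Xbp1). In αD KO at 0h single libraries stood apart. Pdia4 had 32.2 CPM in blood library 2, against 8.63 and 5.93 CPM in 1a and 1b. Herpud1 had 482 CPM in lung library 2, against 107 and 76.8 CPM. At 12 hours edgeR again called none in WT, against 0.0442% of 13590 genes. At an unadjusted p under 0.05 were 5 of the 10 and 2454 of all genes. DESeq2 called 3 of the 10 there, against 8.28% of genes. Pdia4 was 4.85-fold lower in WT lung than in WT blood (log2 difference -2.28, SE 0.61, adjusted p = 0.00595), with no overlap between 3.03 to 7.21 and 14.2 to 59.0 CPM. Atf4 and Ddit3 were higher in lung (log2 differences 1.82 and 2.00, adjusted p = 0.0332 and 0.0325).

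In αD KO at 12 hours edgeR called none of the 10 between lung and blood, against 0.0548% of 14592 genes. At an unadjusted p under 0.05 were 1 of the 10, Ddit3, and 3240 of all genes. DESeq2 called Ddit3, 1 of 10 against 10.3% of genes, with a log2 difference of 2.45 (SE 0.70, adjusted p = 0.01). At 137, 17.0 and 182 CPM in lung and 36.2, 12.4 and 19.4 CPM in blood, libraries 1a and 2 of lung lay above blood and library 1b within it. In WT, where Ddit3 had 113, 13.2 and 154 CPM in lung and 27.3, 14.5 and 29.7 CPM in blood, libraries 1a and 2 of lung lay above blood and library 1b below it. Without library 1b of lung, edgeR called 5 of the 10 genes in WT, against 20.2% of all genes (Atf4, Herpud1 and Ddit3 higher in lung, Pdia4 and Pdia6 lower), and Ddit3 in αD KO, against 11.2%.

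Whether the 12-hour change differed between tissues was tested last. By edgeR none of the 10 genes was called in WT, against 0.0% of 23497 genes, or in αD KO, against 0.0% of 22218. At an unadjusted p under 0.05 were 2 of the 10 (Pdia4 and Atf4) and 1290 of all genes in WT. In αD KO these were 2 of the 10 (Ddit3 and Herpud1) and 2352 of all genes. DESeq2 called 0 of the 10 in either genotype. The difference in log2 change for Ddit3, lung minus blood, was 1.92 in WT (95% interval -0.146 to 3.995) and 2.65 in αD KO (0.61 to 4.70). These contrasts depend on the scaling: RLE factors in place of TMM moved the median of all genes by 0.17 in WT and 0.20 in αD KO, while all other comparisons moved by less than 0.1.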

How the data were processed

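RNA of 16 neutrophil samples in 8 groups was sequenced by the authors from full-length amplified cDNA (Nextera XT libraries). Reads were trimmed with Trimmomatic 0.36 and mapped with STAR 2.5.2b, and unique reads within exons were counted per gene. The deposited values are raw counts for 49315 genes in 24 files, on GRCm38 per the submitters' processing notes. The counting tool and its strand setting are not given in the sources used here. Each file was taken as a library, because the files of sample 1 differed beyond counting noise (chi-square per degree of freedom 63.5 to 328.5).

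The main test was the two-sided quasi-likelihood F test of edgeR 4.0.16 in R 4.3.3, with TMM factors and filterByExpr, fitted to the libraries of the compared groups alone. A gene was called at a Benjamini-Hochberg adjusted p under 0.05 over all genes tested and an absolute log2 fold change over 1, and interactions at the adjusted p alone. All 10 genes passed the filter in every comparison. DESeq2 1.42.0 and voom in limma 3.58.1 were alternatives. CPM used TMM factors over 24 libraries and TPM the exon lengths in the files. Libraries of the same number (1a, 1b or 2) deviated together from their group means, with correlations across genes of 0.116 to 0.769 in the 12 comparisons, all over 0.1. This pairing comes from the data and not from the labels, and the fit with the number as a block is given where it changed a call. The 10 genes and the lists were chosen with earlier results of these data known. All 10 genes are named, list genes are named where called and, at most 4 a list, by the largest fold change without overlap between groups, and the few others were chosen after their values were seen.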

Additional observations from a re-analysis of the deposited data

Results flagged for a closer look

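Pdia4 moved one way in WT lung, where all 3 libraries were lower at 12 hours, and the other way in αD KO lung, where all 3 were higher than the library of the same number at 0h. The difference in log2 change between the genotypes was 1.324 (SE 0.589), and edgeR's interaction term did not pass the correction (adjusted p = 0.463). It also moved in opposite directions in WT lung and WT blood, where all 3 libraries were higher at 12 hours. The difference in log2 change, lung minus blood, was -2.56 (SE 0.727, adjusted p = 0.876). Pdia4 had 43 to 1011 counts per library, and the αD KO lung libraries that stood apart enter the first of these values.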

How the results depend on the processing

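The number of the 10 genes called depended on the fit. In WT blood at 12 hours against 0h it was 1, and 2 with RLE normalization, 6 with DESeq2, 5 with at least 10 counts in every library, 0 with all 8 groups in the fit, 6 with the files of sample 1 summed, 5 with libraries 1a and 2 alone, and 0 to 5 when each library was left out. With the replicate block it was 6. In WT lung it was 0, and 2 with DESeq2, 2 with the files summed, 3 with libraries 1a and 2 alone and 0 to 3 with a library left out. In αD KO blood it was 1, and 2 with DESeq2, 0 with all 8 groups, 2 with libraries 1a and 2 alone and 0 to 2 with a library left out. Between lung and blood at 12 hours it was 0 in WT, and 3 with DESeq2, 3 without a filter, 4 with the files summed, 6 with libraries 1a and 2 alone and 0 to 5 with a library left out. In αD KO it was 0, and 1 with DESeq2, without a filter or with the files summed, 2 with libraries 1a and 2 alone and 0 to 1 with a library left out. For αD KO against WT lung at 12 hours it was 0, and 3 with voom weights or with libraries 1a and 2 alone. The interactions called 0, except 1 for genotype by time in lung and 4 for tissue by time in WT with libraries 1a and 2 alone, and 0 to 1 for the latter with a library left out. The setting with libraries 1a and 2 alone was chosen after seeing the data, and the cause of these differences was not tested. The share of all genes called rose with them in that setting, to 23.1% in WT blood, 37.2% in WT lung, 11% in αD KO blood, 30.1% between the genotypes in lung at 12 hours, 28.2% and 34.3% between lung and blood in WT and αD KO, and 13.2% and 7.41% for these interactions. With voom weights it was 21.0%, and with a library left out it was 0.00999% to 18.4% in WT blood, 0.0% to 25.3% in WT lung and 0.456% to 8.74% in αD KO blood. In WT blood it was 14.9% with RLE normalization, 21.6% with DESeq2 and 24.9% with at least 10 counts in every library. There it was 4.12% with all 8 groups, 15.9% with the files summed and 18.4% with the block. In WT lung it was 20.6% with DESeq2 and 12.3% with the files summed, and in αD KO blood 18.4% with DESeq2 and 0.236% with all 8 groups. Between lung and blood at 12 hours, the share in WT and αD KO was 8.28% and 10.3% with DESeq2 and 1.59% and 3.13% without a filter. With the files summed it was 4.47% and 8.27%, and with a library left out 0.0% to 20.2% and 0.0% to 11.2%. For tissue by time in WT it was 0.0% to 0.68% with a library left out. The block changed the number of members called in no comparison other than WT blood.

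With library totals in place of TMM, chosen after seeing the data, the number of the 10 genes called changed in no comparison. Of 210 alternatives for 14 fold changes, 144 kept their side of the threshold, 9 lost it, 57 gained it and 0 changed direction. Over 5 alternatives the folding genes called higher in WT blood were 6 to 11, the ATF4 and CHOP targets called lower there 3 to 9 and the heat shock chaperones called lower there 1 to 5, with 0 called higher there, 0 to 4 in WT lung and 0 to 1 in αD KO blood. In WT lung the targets called were 3 to 12 higher and 1 to 6 lower, and in αD KO blood 1 to 5 higher and 1 to 6 lower, with 2 to 5 folding genes and 1 to 3 genes of degradation and translocation higher. Of all genes, these 5 alternatives called 14.7% to 23.1% in WT blood, 6.01% to 37.2% in WT lung and 3.84% to 18.4% in αD KO blood. With each library left out in turn, the folding genes called higher in WT blood were 0 to 7, the targets called lower there 0 to 8, and the targets called higher 0 to 5 there, 0 to 9 in WT lung and 0 to 3 in αD KO blood. Trib3 and Pdia4 rest on as few as 16 and 43 counts, and a library number that mixes 2 files of 1 sample leaves n at 2 if both came from 1 mouse.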
